A study of Mus musculus with 26 samples.

Results

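The lacrimal gland, source of the aqueous layer of tears, and the parotid gland, a salivary gland of watery secretion, were compared on the messenger RNA of BALB/c mice. The comparison takes every array whose title names the lacrimal or the parotid gland, 10 of the 26 arrays of the series: 6 lacrimal and 4 parotid. Both sexes are present, with 3 lacrimal and 2 parotid pools for each, and the sexes were weighted equally. Every array carried RNA from 1 pool of 10 glands from 5 animals, and the labels give separate pools the letters A, B and C. No mutation, transgene or treatment is named for any group, and no age of the mice is given in the sources used here. Another 16 arrays held submandibular, sublingual and meibomian glands. They entered the estimate of the spread, the choice of probes to test, the lower limit for small values, the array sets described below and the alternatives. Their values are not part of the gland levels given here.

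Both glands are built mainly of serous acini, clusters of cells that store protein in granules and release it with fluid into a duct. Autonomic nerves trigger that release through calcium and cyclic AMP. In salivary glands the acinar fluid is then changed along striated ducts, which take back sodium chloride and add potassium, so that saliva becomes dilute. Lacrimal glands have no striated ducts. Lactoperoxidase and lactoferrin are antimicrobial proteins of tears and saliva, and amylase is the starch-digesting enzyme of saliva.

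Values are normalised intensities, 1 per probe and array, with array medians between 0.932 and 0.955 on the 10 arrays. A probe is compared only with itself across arrays. A level is the geometric mean over the pools of a gland with the sexes weighted equally, a difference is lacrimal minus parotid on the log2 scale with its standard error, and a call needs an adjusted p under 0.05 in limma together with a difference of at least 1. Array maxima lay between 158 and 194 on the parotid A arrays, between 565 and 625 on the parotid B arrays and between 498 and 868 on the lacrimal arrays. Values of probes within 80% of an array's maximum may therefore be compressed, which was not tested. Such values occurred for 46 probes on at least 1 parotid array and for 40 on at least 1 lacrimal array. A probe is called near the ceiling of a gland even where only 1 array gives such a value. A ceiling in the parotid would make a difference towards the parotid look smaller and one towards the lacrimal gland look larger. The reverse would hold for a lacrimal ceiling. A probe below the 30th percentile of every array of a gland is called dim there, its fold is a lower bound taken against that percentile, and any log2 difference printed for it is only the fitted value. The labels mark no batch. Deviations from the group means separated the arrays into 2 sets along a first component that took 39.1% of the variance, and each sex and gland here had 1 array in the first set (parotid A, lacrimal B). With that set as a block, 2071 of the 2142 calls described below were made again. The sets came from these same values and divided each gland and sex, so this is not an independent check of the calls. Whole glands were measured, so fewer cells of a type and less RNA per cell cannot be told apart.

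The markers of the glands came first. Lpo, which codes for lactoperoxidase, read 504, 433 and 425 in the female lacrimal pools A, B and C and 492, 360 and 534 in the male ones. In the parotid it read 150 and 254 in females and 128 and 308 in males. All 6 lacrimal arrays lay above all 4 parotid arrays, with a difference of 1.21 ± 0.22 (adjusted p = 0.000206 in limma). On the male parotid A array the probe was near the ceiling (128 against a maximum of 158). That can enlarge a difference in this direction. The call was lost after quantile normalization (difference 0.33, adjusted p = 0.141), on the arrays of the second set alone (0.80) and without the male parotid A pool (0.89).

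Ltf, which codes for lactoferrin, read 103, 68.1 and 61.9 in female and 63.1, 26.9 and 45.0 in male lacrimal pools. It read 0.433 and 0.295 in female and 0.279 and 0.414 in male parotid pools. The groups were far apart, with a difference of 7.34 ± 0.46 (adjusted p = 8.16e-11).

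Amy1, the salivary amylase, read 182 and 458 in female and 150 and 492 in male parotid pools. The lacrimal pools read 57.6, 362 and 57.2 in females and 229, 8.26 and 6.36 in males. The groups overlapped, since the female lacrimal B pool and the male lacrimal A pool lay above the parotid A pools. The difference was -2.51 ± 0.75 (adjusted p = 0.0106), with the parotid probe near the ceiling. The call was lost when gland and pool letter were a random block (adjusted p = 0.117), when only the 10 arrays were fitted (0.0887), without either parotid B pool (0.0523 female, 0.0593 male) and without both lacrimal C pools (0.0636). Lactoferrin thus separated the glands on every array, whereas amylase was read in all lacrimal pools as well.

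The start regions of the markers and of leading secretory genes of each side are shown because they are the reference points of the comparison. Each sequence is the 100 bases before the annotated start of the gene, 5′ to 3′ on the gene's strand, from RefSeq on assembly GRCm38.p6, which is the C57BL/6J genome and not that of BALB/c. Capitals mark TATAAA, read on both strands. Amy1 has more than 1 annotated start, and mouse salivary amylase is known to use alternative promoters, which the array does not distinguish.
Lpo (chr11:87826115-87826214, minus strand): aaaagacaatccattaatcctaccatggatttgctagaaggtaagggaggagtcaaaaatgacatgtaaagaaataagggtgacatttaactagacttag
Ltf (chr9:111019192-111019291, plus strand): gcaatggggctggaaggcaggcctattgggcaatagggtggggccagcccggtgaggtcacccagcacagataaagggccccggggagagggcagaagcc
Agr2 (chr12:35992825-35992924, plus strand): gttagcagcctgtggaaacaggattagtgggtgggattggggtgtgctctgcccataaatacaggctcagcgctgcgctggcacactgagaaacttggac
Scgb1b2 (chr7:31291817-31291916, minus strand): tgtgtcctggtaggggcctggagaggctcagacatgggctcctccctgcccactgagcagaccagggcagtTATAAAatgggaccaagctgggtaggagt
Amy1, upstream start (chr3:113577751-113577850, minus strand): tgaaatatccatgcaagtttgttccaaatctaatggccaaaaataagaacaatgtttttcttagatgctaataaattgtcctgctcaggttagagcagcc
Amy1, downstream start (chr3:113574763-113574862, minus strand): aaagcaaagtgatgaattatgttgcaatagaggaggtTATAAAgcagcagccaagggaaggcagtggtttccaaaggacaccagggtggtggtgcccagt
Chil3 (chr3:106167565-106167664, minus strand): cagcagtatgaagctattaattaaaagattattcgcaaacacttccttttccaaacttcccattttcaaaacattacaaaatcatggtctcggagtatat
Of the 28 genes of largest difference, 22 had an entry in the promoter table. Among their entries, TATAAA lay within 100 bases before the start in 1 of 12 for genes higher in the lacrimal gland and 1 of 12 for genes higher in the parotid, against 5.56% of all 32851 entries. CAGCTG, a palindromic E-box of the kind that basic helix-loop-helix factors bind, lay within 250 bases before the start in 2 of 12 and 5 of 12, against 13% of all entries.

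Over all 8210 probes tested, 1188 (14.5%) were called higher in the lacrimal gland and 954 (11.6%) higher in the parotid, 26.1% in all. The plot of levels shows both groups as clouds on either side of the diagonal. All 6 lacrimal arrays lay above all 4 parotid arrays for 1177 probes (14.3%), and below them for 875 (10.7%). The split between the directions depended on scaling and on the filter. Of the calls, 55.5% were higher in the lacrimal gland, against 42.7% after quantile normalization (908 and 1218 calls). The share was 64.4% with no filter (1710 and 947 calls) and 52.0% with the filter at the 50th percentile. The median difference of all probes was 0.22, and 0.05 after quantile normalization, so the differences below are read relative to that shift.

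**Figure D1:**
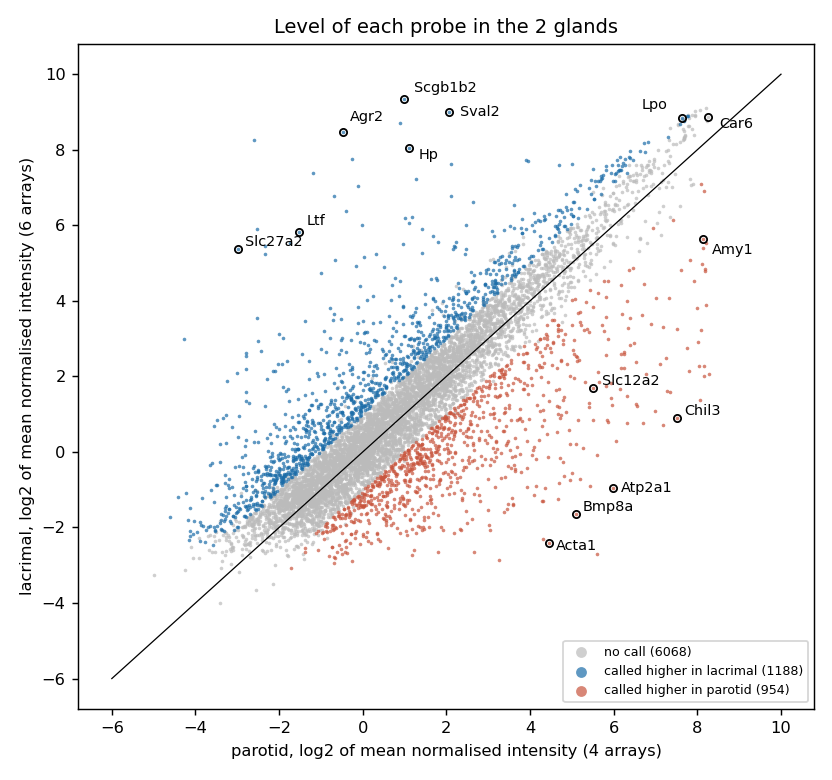
Level of each of 8210 probes, log2 of the mean normalised intensity in the parotid (x axis, 4 arrays) and in the lacrimal gland (y axis, 6 arrays), with the line of equal levels. Blue points are the 1188 probes called higher in lacrimal and red points the 954 called higher in parotid. Ringed genes are named in the text.

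Genes far higher in the lacrimal gland included secreted proteins, enzymes of lipid and steroid metabolism and a water channel. Agr2, a protein disulfide isomerase of the endoplasmic reticulum of secretory cells, read between 279 and 460 in the lacrimal pools and between 0.633 and 0.901 in the parotid pools (8.95 ± 0.24). Anxa8, an annexin that binds membranes in the presence of calcium, had levels of 167 and 0.442 (8.56 ± 0.38). Scgb1b2, a secretoglobin of the androgen-binding protein family, read between 475 and 868 in the lacrimal and between 1.31 and 2.82 in the parotid pools (8.37 ± 0.31). These genes were apart in every pool of both sexes. Scgb1b2, like Sval2 below, lay near the ceiling of lacrimal arrays. Pnliprp1, also below, did so in the female B pool only.

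Other secreted products belonged to this side. Sval2, which is related to a seminal vesicle secretory protein, read between 383 and 658 in lacrimal and between 3.64 and 4.89 in parotid pools (6.94 ± 0.35). Csn1s2a, a casein known from milk, read between 80.3 and 346 in lacrimal and between 0.784 and 1.04 in parotid pools (7.17 ± 0.33). Hp, the haemoglobin-binding haptoglobin known as a liver product, read between 104 and 438 in lacrimal and between 0.983 and 4.77 in parotid pools (6.92 ± 0.28). The transcript A730035I17Rik had levels of 420 and 1.86 (7.82 ± 0.22).

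Enzymes and carriers were also prominent. Akr1c18, which inactivates progesterone, had levels of 38.0 and 0.199 (7.58 ± 0.56). Slc27a2, a very long chain acyl-CoA synthetase, had levels of 41.1 and 0.127 (8.35 ± 0.58), and read 8.68, 4.15 and 10.9 in female but 295, 158 and 265 in male lacrimal pools. Aqp8, an aquaporin of pancreatic acini and liver, read between 30.3 and 70.3 in lacrimal and between 0.174 and 0.792 in parotid pools (7.27 ± 0.35). Slco1a6, an organic anion carrier, was below the 30th percentile on every parotid array and at least 22.9-fold higher in the lacrimal gland (7.26 ± 0.32).

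Pnliprp1, a pancreatic lipase-related protein, gave the widest spread among these genes. The female lacrimal pools read 558, 451 and 558. The male ones read 1.32, 53.8 and 0.725, all above the parotid pools (0.123 to 0.333). With the sexes weighted equally the difference was at least 127-fold (7.79 ± 1.15, adjusted p = 1.55e-05). The bound was 1509-fold in females but only 10.6-fold in males. In males alone the gland difference was not called (3.99, adjusted p = 0.0765). The difference between the sexes missed the threshold (adjusted p = 0.150) except with the random block (0.0189). The probe named for the transcriptional repressor Bcl6b completed the 14, with levels of 214 and 0.834 (8.0 ± 0.36).

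**Figure D2:**
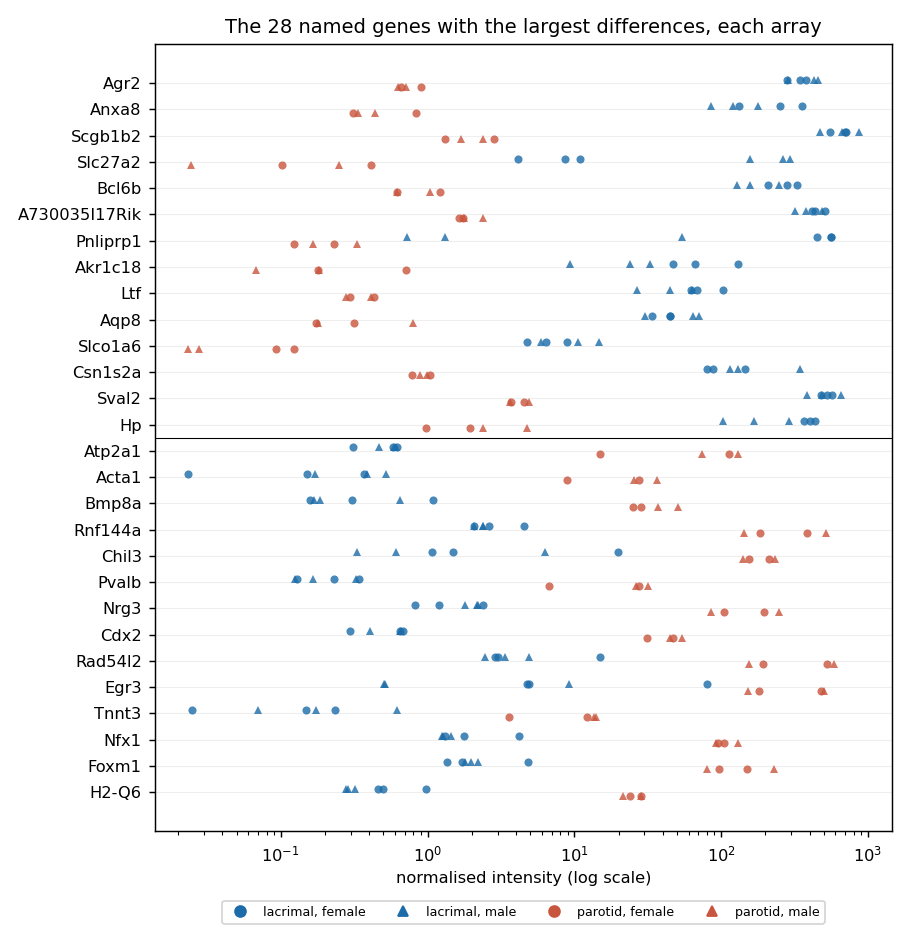
Normalised intensity on each array (log axis) of the 14 genes of largest difference in either direction, lacrimal in blue, parotid in red, circles for female and triangles for male pools. The 28 genes were chosen among calls without overlap between the glands, so the 2 colours do not overlap for any of them.

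The genes far higher in the parotid were led by skeletal muscle genes. Atp2a1, the calcium pump of fast muscle, read 14.9 and 113 in female and 74.1 and 131 in male parotid pools and between 0.312 and 0.616 in lacrimal pools (-6.95 ± 0.53). Acta1, skeletal muscle actin, read 8.87 and 27.7 in female and 36.5 and 25.6 in male parotid pools (-6.86 ± 0.58). Pvalb, a calcium-binding protein of fast muscle, was below the 30th percentile on every lacrimal array and at least 47.2-fold higher in the parotid. Tnnt3, fast muscle troponin T, had levels of 0.137 and 9.57 (-6.12 ± 0.56).

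Other genes of this group had little to do with muscle. Chil3, a chitinase-like secreted protein, read 155 and 212 in female and 142 and 234 in male parotid pools. In lacrimal pools it read 1.49, 19.9 and 1.07 in females and 6.36, 0.329 and 0.607 in males (-6.61 ± 0.72). The parotid value was near the ceiling on the male A array but not on the B arrays. Bmp8a, a signalling protein of the bone morphogenetic family, had levels of 0.319 and 34.0 (-6.74 ± 0.44). H2-Q6, a class Ib histocompatibility gene, had levels of 0.423 and 25.4 (-5.91 ± 0.23).

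The other 7 of the 14 were probes named for regulators or nuclear proteins. The probe for Cdx2, a homeobox factor known from the intestine, read between 31.4 and 54.0 in parotid and between 0.294 and 0.682 in lacrimal pools (-6.35 ± 0.30). The probe for Rnf144a, a ubiquitin ligase, had levels of 2.57 and 268 (-6.71 ± 0.39), that for Rad54l2, a helicase, 4.18 and 310 (-6.22 ± 0.50), and that for Egr3, an immediate early factor, 4.04 and 286 (-6.15 ± 0.77). These 3 lay near the ceiling of the parotid arrays. The probes for the growth factor Nrg3 (-6.45 ± 0.42), the factor Nfx1 (-5.95 ± 0.27) and the cell division factor Foxm1 (-5.91 ± 0.39) had parotid levels of 144, 104 and 127. Of the 36 other measured cell cycle genes, limma called 0 higher in the parotid (0 also at an unadjusted p under 0.05) and 4 higher in the lacrimal gland, or 1 after quantile normalization. What these probes read beyond their annotation was not tested.

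Some parotid products were shared by the lacrimal pools in an uneven way. Chia1, the acidic chitinase, was chosen for this description after its values were seen. It read 27.0, 285 and 37.5 in female and 92.4, 4.94 and 3.32 in male lacrimal pools, against 192 and 453 in female and 151 and 549 in male parotid pools. Klk1b5, a tissue kallikrein, read 5.74, 88.9 and 2.42 in female and 14.2, 1.16 and 0.350 in male lacrimal pools, and between 137 and 365 in the parotid (-5.66 ± 0.82). Chia1 and Klk1b5 were near the ceiling of parotid arrays. Amy1, Chia1, Klk1b5, Chil3 and the Egr3 probe were highest in the female lacrimal B pool, next in the male lacrimal A pool and lowest in the male B and C pools. Lpo and Ltf did not follow that order.

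The female lacrimal B pool stood apart for the probes of largest difference. Of 92 probes called higher in the parotid by at least 4 and measured on all lacrimal arrays, 45 (48.9%) had their highest lacrimal value there, against 11.1% of all 7920 probes measured on those arrays. The corresponding shares for the other lacrimal pools ran from 3.26% (male B) to 19.6% (male C). Over all 922 probes called higher in the parotid and measured on these arrays, the female B pool held the highest lacrimal value for 152 (16.5%), within the 12.8% to 23.4% of the other lacrimal pools. Without that pool, 930 probes were called higher in the parotid and 1261 higher in the lacrimal gland. What this pool's levels come from was not tested.

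**Figure D3:**
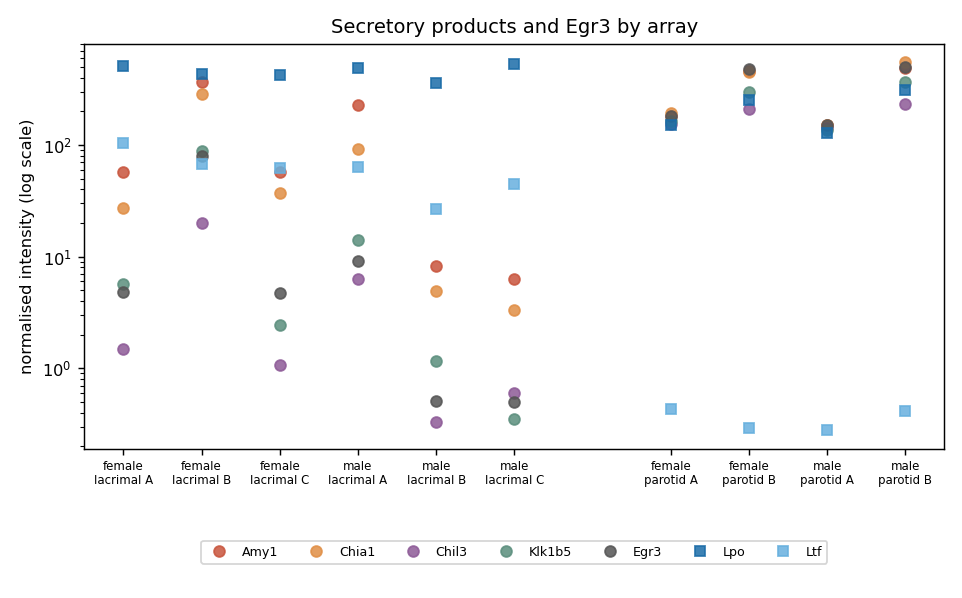
Normalised intensity (log axis) of Amy1, Chia1, Chil3, Klk1b5 and the Egr3 probe (circles) and of Lpo and Ltf (squares) on the 6 lacrimal and 4 parotid arrays. The circles are highest among lacrimal arrays in the female B pool, where Amy1 reads 362, while Ltf stays between 26.9 and 103 on all lacrimal arrays.

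Counts of calls in the gene lists stand against 14.5% of all probes called higher in the lacrimal gland and 11.6% higher in the parotid. The lists of secreted proteins divided between the glands. Of 18 measured tear and defence proteins, 5 were called higher in the lacrimal gland and 5 higher in the parotid, with a median difference of 0.76 against 0.22 for all probes. Beside Lpo, Ltf, Sval2 and Csn1s2a, the lacrimal side held Crisp2, a cysteine-rich secretory protein (2.07 ± 0.26). The parotid side held Chil3, the transport protein Tcn2 for vitamin B12 (-1.61 ± 0.22), the protease inhibitor Cst3 (-1.27 ± 0.26) and the lysozymes Lyz2 (-1.61 ± 0.33) and Lyz1. Lyz1 overlapped, with parotid pools at 17.3, 5.61, 10.0 and 6.35 and lacrimal pools between 1.95 and 9.17, and its call was lost in 8 of the alternatives, among them the fit without the female parotid A pool (-0.73, adjusted p = 0.167).

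Of 6 measured saliva proteins of serous cells, 4 were called higher in the parotid and 1 higher in the lacrimal gland. Smr2, a submaxillary gland protein, was measured on the A parotid pools only, at 27.4 and 23.1, and on 4 lacrimal arrays between 1.66 and 2.97 (-3.45 ± 0.35). Its call was lost when missing spots were set to the floor (-0.62, adjusted p = 0.878). Azgp1, zinc alpha-2 glycoprotein, went the other way, with levels of 6.59 and 0.497 (3.73 ± 0.26). Car6, the secreted carbonic anhydrase, was not called: it read between 345 and 538 in lacrimal pools and 192, 515, 156 and 572 in parotid pools, near the ceiling in both glands (0.60 ± 0.32, adjusted p = 0.139).

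Pancreas-type digestive enzymes also went both ways, with 4 of 10 called higher in the lacrimal gland and 2 in the parotid. Cpb1, carboxypeptidase B, was at least 11-fold higher in the lacrimal gland (4.24 ± 0.51), and Ctrb1, chymotrypsinogen, had levels of 3.96 and 1.47 (1.43 ± 0.28). Cela1, an elastase, had levels of 0.417 and 5.17 (-3.63 ± 0.31). Cel, a bile salt-dependent lipase, was dim in the parotid and called at least 1.91-fold higher in the lacrimal gland, but not with the random block (adjusted p = 0.0743) or without the male parotid A pool (0.0663). Of 10 measured lipocalins, related carriers and secretoglobins, Scgb1b2 alone was called higher in the lacrimal gland, and Rbp4 (-3.03 ± 0.31), Orm1 (-2.16 ± 0.36) and Lcn5 were called higher in the parotid. Lcn5 was dim in the lacrimal gland and at least 1.68-fold higher in the parotid, without a call under the random block (adjusted p = 0.0840). Of 18 protease inhibitors, 0 were called higher in the lacrimal gland (1 at an unadjusted p under 0.05 in limma) and 6 higher in the parotid, among them Serpina1b (-2.26 ± 0.35) and Serpinb1a (-1.65 ± 0.31).

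Genes of the secretory machinery that were called were higher in the lacrimal gland. Of 37 measured genes of translocation and folding in the endoplasmic reticulum, 21 (56.8%) were called higher there and 0 higher in the parotid, against 14.5% and 11.6% of all probes. At an unadjusted p under 0.05 in limma the counts were 34 and 0. The median difference was 1.07, and 36 of the 37 differences were above 0. After quantile normalization 13 were called, with a median of 0.83. Spcs2, a subunit of the signal peptidase that trims nascent secretory proteins, read between 106 and 308 in lacrimal and between 23.2 and 39.0 in parotid pools (2.61 ± 0.27). Sdf2l1, part of a chaperone complex, had levels of 71.9 and 14.1 (2.35 ± 0.21). Srp9, part of the signal recognition particle, had levels of 80.6 and 17.0 (2.25 ± 0.31), and Dnajb11, a co-chaperone, 15.8 and 3.79 (2.06 ± 0.23).

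Of 25 genes of exocytosis and granule traffic, 7 (28%) were called higher in the lacrimal gland and 0 higher in the parotid. At an unadjusted p under 0.05 in limma the counts were 9 and 2. Rab27a and Rab27b, small GTPases that tether granules to the membrane, differed by 2.73 ± 0.32 and 2.32 ± 0.34. Napa, which helps to take SNARE complexes apart, differed by 1.77 ± 0.27, and Sytl4, a partner of Rab27, by 1.62 ± 0.20. The median of this list, 0.30, was close to that of all probes.

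Of 55 cytosolic ribosomal proteins, 0 were called in either direction by limma's rule, although 54 differences were above 0, with a median of 0.66, and 37 were higher in the lacrimal gland at an unadjusted p under 0.05. That median was 0.89 on the arrays of the first set, 0.25 on those of the second and 0.07 after quantile normalization. Rpl10 differed by 0.48 ± 0.38, and the elongation factor Eef1a1, near the ceiling in both glands, by 0.91 ± 0.32, neither with a call. Of 50 genes of oxidative phosphorylation, 2 were called, both higher in the parotid and both muscle forms of cytochrome oxidase subunits: Cox8b (-5.62 ± 0.39) and Cox7a1 (-3.27 ± 0.39).

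Genes of duct salt transport that were called were higher in the parotid. Of 12 measured genes of sodium and potassium transport in ducts, 8 were called higher in the parotid and 0 higher in the lacrimal gland, with a median of -1.62 (9 and 0 at an unadjusted p under 0.05 in limma). Fxyd2, the gamma subunit of the sodium pump, read 111 and 270 in female and 98.6 and 236 in male parotid pools and between 1.85 and 5.76 in lacrimal pools (-5.74 ± 0.30). Atp1b1, the beta subunit of that pump, read between 42.6 and 49.2 in parotid and between 1.28 and 2.39 in lacrimal pools (-4.66 ± 0.17). Scnn1a and Scnn1b, subunits of the epithelial sodium channel, differed by -3.64 ± 0.26 and -2.41 ± 0.27. The summed level of the 12 genes lay between 9.67 and 17.9 on lacrimal arrays and between 171 and 354 on parotid arrays.

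Among 20 genes of primary fluid secretion, 6 were called higher in the parotid and 1 higher in the lacrimal gland. Slc12a2, the cotransporter that loads acinar cells with chloride, read 42.6 and 44.2 in female and 42.8 and 51.4 in male parotid pools. It read between 2.65 and 4.71 in lacrimal pools (-3.81 ± 0.17, adjusted p = 7.47e-13). Car2, a cytosolic carbonic anhydrase, differed by -2.92 ± 0.32 and lost its call when missing spots were set to the floor (-0.72, adjusted p = 0.591). Aqp8 was the member on the lacrimal side, while Aqp5, the main water channel of both acini, had levels of 26.5 and 28.1 and was not called (-0.09 ± 0.23, adjusted p = 0.790). Of 12 genes of the vacuolar proton pump, which acidifies granules and other compartments, Atp6v0d1 (1.36 ± 0.21) was called higher in the lacrimal gland and Atp6ap1 (-1.94 ± 0.19) and Atp6v1a (-1.71 ± 0.50) higher in the parotid, Atp6v1a not without the male parotid A pool (-1.36, adjusted p = 0.0673).

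Receptors and signalling followed. Of 11 measured receptors that drive secretion, 3 (27.3%) were called higher in the lacrimal gland and 0 higher in the parotid. At an unadjusted p under 0.05 in limma the counts were 5 and 0. Mc5r, the melanocortin receptor of exocrine glands, read between 2.37 and 7.58 in lacrimal and between 0.468 and 0.612 in parotid pools (2.98 ± 0.32). Chrm3, the muscarinic receptor of acini, overlapped (1.21 ± 0.38), and its call was lost in 6 of the alternatives, among them the random block (adjusted p = 0.138), quantile normalization (0.0509) and the fit without the male parotid B pool (0.112). P2ry1, a nucleotide receptor, read between 0.0901 and 0.614 in lacrimal pools and was dim in the parotid (0.0679 to 0.189). No fold is given for it, because its lacrimal level lay below the percentile that bounds the parotid. Its call (adjusted p = 0.00624) was lost on the arrays of the second set alone (adjusted p = 0.0863) and with 0.1 added before log2 (difference 0.97). Of 23 genes of calcium and cyclic AMP signalling, 6 were called higher in the parotid, led by the calcium pump Atp2a3 (-3.48 ± 0.38) and the inositol trisphosphate receptor Itpr2 (-1.78 ± 0.25), and 2 higher in the lacrimal gland, Stim1 (1.13 ± 0.30) and Camk2d (1.06 ± 0.27). The Stim1 call was lost when only the 10 arrays were fitted (adjusted p = 0.0525), without the female lacrimal B pool (difference 0.82) and on the second array set alone (0.73). That of Camk2d was lost in 7 of the alternatives, among them the fits without the female lacrimal C pool (0.88) and without the female parotid B pool (0.91).

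Regulators differed by gene rather than in 1 direction. Of 27 regulators of exocrine cells, 5 were called higher in the lacrimal gland (3 after quantile normalization) and 6 higher in the parotid. Pax6, an eye and lacrimal developmental factor, read between 8.95 and 21.9 in lacrimal and between 0.978 and 1.17 in parotid pools (3.92 ± 0.21). Sox10, a factor of salivary acini and of Schwann cells, read between 11.9 and 14 in parotid and between 0.880 and 1.73 in lacrimal pools (-3.28 ± 0.16). Creb3l1, a membrane-bound factor of secretory cells, had levels of 4.68 and 72.3 (-3.95 ± 0.34). Bhlha15, which organises acinar cells, had levels of 12.4 and 6.17 and was not called (adjusted p = 0.157). Bhlha15 and Aqp5 were singled out after their values were seen.

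Of 30 homeobox and positional factors, 4 (13.3%, near the 14.5% of all probes) were called higher in the lacrimal gland. Another 6 (20%, against 11.6%) were called higher in the parotid. Foxc2, a factor of the tissue around the eye, was at least 12.3-fold higher in the lacrimal gland (5.11 ± 0.32), and Alx4, a head mesenchyme factor, at least 6.62-fold (3.55 ± 0.31). Pax9, a factor of the pharyngeal and oral region, had levels of 0.333 and 10.4 (-4.96 ± 0.36), and Dlx5, a jaw patterning factor, 0.870 and 17.5 (-4.33 ± 0.25). Meis2, a homeobox cofactor, differed by -2.99 ± 0.16.

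Glycan enzymes split as well, with 7 of 32 (21.9%) called higher in the lacrimal gland and 9 (28.1%) in the parotid. Chst2, which adds sulfate to N-acetylglucosamine, read 40.9, 13.5 and 17.3 in female and 394, 276 and 320 in male lacrimal pools and between 0.603 and 1.01 in the parotid (6.78 ± 0.24). Chst1, a related sulfotransferase, differed by 1.44 ± 0.20. The parotid side held sialyltransferases, which cap glycans with sialic acid: St3gal6 had levels of 1.71 and 79.9 (-5.55 ± 0.34), St6galnac4 0.244 and 5.05 (-4.37 ± 0.51) and St6gal1 0.318 and 2.32 (-2.87 ± 0.27).

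Steroid and sterol genes had more calls on the lacrimal side. Of 21 steroid receptors and enzymes, 8 were called higher in the lacrimal gland and 1 higher in the parotid, with a median of 0.68, and 5 and 1 after quantile normalization. Hsd17b4, a peroxisomal enzyme of steroid and fatty acid breakdown, had levels of 23.8 and 3.09 (2.95 ± 0.24). The parotid member was Hsd11b1, which activates glucocorticoids (-2.31 ± 0.37). Hsd17b1, an oestradiol-forming enzyme (2.51 ± 0.99, adjusted p = 0.0467), lost its call in 16 of the alternatives, among them the random block (adjusted p = 0.104) and the fit without the male parotid A pool (1.33, adjusted p = 0.329).

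Of 12 genes of cholesterol synthesis, 4 were called higher in the lacrimal gland, Cyp51 (1.99 ± 0.26), Fdps (1.40 ± 0.24), Mvk (1.02 ± 0.21) and Msmo1 (1.02 ± 0.26), and 1 higher in the parotid. Fdps had 1 missing lacrimal spot, and with missing spots at the floor its difference was -0.36 (adjusted p = 0.846). Mvk and Msmo1 lay just above the minimum difference of 1 and fell below it in 6 and 10 of the alternatives, Msmo1 after quantile normalization (0.92) and with the array set as a block (0.94) among them. Leaving out 1 pool gave 2 (without male lacrimal A) to 8 (without male parotid B) lacrimal calls in this list. The exception was Dhcr7, the last enzyme of the pathway, with levels of 5.90 and 56.6 (-3.26 ± 0.28). Of 44 detoxification and redox genes, 9 (20.5%) were called higher in the lacrimal gland. They were led by Adh1 (4.49 ± 0.24), which oxidises alcohols and retinol, and Gsta3 (3.26 ± 0.33), a glutathione transferase. The 6 called higher in the parotid (13.6%, near the 11.6% of all probes) included Gpx3 (-2.09 ± 0.23) and Ephx2 (-1.75 ± 0.27). Of 24 genes of liver-type plasma proteins, 7 were called higher in the lacrimal gland, among them Hp and Cyp2b10 (3.16 ± 0.32), and 13 higher in the parotid, among them Ttr (-4.08 ± 0.44) and Cyp2e1 (-3.36 ± 0.33). With the random block, and likewise after quantile normalization, 3 of the list were called higher in the lacrimal gland.

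Markers of other cell types differed most for muscle and fat. Of 31 measured skeletal muscle genes, 23 (74.2%) were called higher in the parotid and 1, Tnnt1 (1.05 ± 0.38), higher in the lacrimal gland, with a median of -2.89. The summed level of 27 of them lay between 16.9 and 27.3 on the lacrimal arrays. It was 104 and 388 on the female and 325 and 388 on the male parotid arrays, lowest in the female A pool. The Tnnt1 call was lost in 13 of the alternatives, among them the random block (adjusted p = 0.115) and the fit without the male parotid A pool (0.226).

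Of 15 adipocyte genes, 12 (80%) were called higher in the parotid, and the retinol saturase Retsat (2.78 ± 0.37) higher in the lacrimal gland. Adipoq, the adipocyte hormone adiponectin, read 25.1 and 89.0 in female and 37.2 and 39.8 in male parotid pools and between 0.917 and 7.10 in lacrimal pools (-4.12 ± 0.36). Fabp4, a fatty acid carrier of fat cells, had levels of 5.22 and 91.9 (-4.14 ± 0.40), and the hormone Retn 1.09 and 16.9 (-3.96 ± 0.32). The summed level of 13 of them lay between 31.4 and 104 on lacrimal and between 177 and 507 on parotid arrays. Genes of other lists that fat and muscle are known to express moved with these, such as the fatty acid genes Cd36 (-3.38 ± 0.30) and Thrsp (-3.35 ± 0.43). Of 32 fatty acid genes, 8 (25%) were called higher in the parotid. Another 4 (12.5%, near the 14.5% of all probes) were called higher in the lacrimal gland, or 2 after quantile normalization. The part of muscle and fat in the other parotid differences was not tested.

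Genes of macrophages, B and T cells, nerves and vessels had more calls on the parotid side. Of 20 macrophage and granulocyte genes, 8 (40%) were called higher there and 0 in the lacrimal gland. At an unadjusted p under 0.05 in limma the counts were 10 and 1. For 14 B cell and plasma cell genes, calls numbered 5 (35.7%) in the parotid and 1 in the lacrimal gland. For 14 T cell genes they numbered 5 (35.7%) and 2, and for 26 interferon response genes 7 (26.9%) and 2. The B cell and plasma cell genes had a median difference of only -0.15. Their summed level was not higher in the parotid, with a median of 44.8 (17.7 to 87.7) on lacrimal and 35.1 (17.9 to 43.5) on parotid arrays. Of 9 genes of class II histocompatibility, 1 (11.1%) was called higher in the parotid, near the 11.6% of all probes, and 0 in the lacrimal gland (6 and 0 at an unadjusted p under 0.05 in limma). After quantile normalization 11 interferon response and 5 class II genes were called higher in the parotid. Cd3d, of the T cell receptor complex, had levels of 0.390 and 2.07 (-2.41 ± 0.33), and Ighm, the heavy chain of IgM, 0.586 and 3.56 (-2.60 ± 0.41). With the random block, 3 genes of B cells and plasma cells and 3 T cell genes were called higher in the parotid, and 0 T cell genes in the lacrimal gland.

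Of 10 nerve and Schwann cell genes, 5 were called higher in the parotid and 0 in the lacrimal gland. At an unadjusted p under 0.05 in limma the counts were 8 and 0. The 5 include Sox10, described above as a factor of salivary acini as well. Which cells these transcripts come from was not tested. Th, which codes for tyrosine hydroxylase, an enzyme known from noradrenergic nerves, read between 6.86 and 8.0 in parotid and between 0.759 and 1.98 in lacrimal pools (-2.59 ± 0.25). Of 16 endothelial genes, 5 (31.25%) were called higher in the parotid, or 9 after quantile normalization. The 5 were led by Flt4 (-5.06 ± 0.42), the receptor of lymphatic vessels, and Edn1 (-2.57 ± 0.23). Ednrb (1.21 ± 0.18) was called higher in the lacrimal gland. Collagen and fibroblast genes had 4 and 2 calls of 34, so that 11.8% were called higher in the parotid, near the 11.6% of all probes. Of 31 keratins and junction genes, 8 were called higher in the parotid, led by Pkp1 (-4.52 ± 0.27), a desmosome plaque protein, and Krt6a (-3.93 ± 0.26), and 5 in the lacrimal gland, among them Cldn10 (1.97 ± 0.30), a claudin of ion-leaky junctions. The lacrimal calls include Krt13, which was dim in both glands, so that no fold is given, and was not called without the female parotid A pool (adjusted p = 0.0818), without the male parotid A pool (0.0641) or on the second array set alone (0.156). Of 26 amino acid and sugar carriers, 4 (15.4%) were called in each direction, against 14.5% (lacrimal) and 11.6% (parotid) of all probes. They were led by the glutamine carrier Slc38a3 (2.48 ± 0.50) and by Slc7a1 (-2.39 ± 0.41), which takes up arginine and lysine. Of 11 smooth muscle and myoepithelial genes, Smtn, dim in the parotid, was called at least 2.13-fold higher in the lacrimal gland. The tropomyosins Tpm2 (-2.99 ± 0.36) and Tpm1 (-2.60 ± 0.47) and the filament gene Des were called higher in the parotid. Tpm2 and Des also belong to the skeletal muscle list, and the median difference of the 11 genes was 0.44. Of 7 mucous cell genes, Agr2 and Creb3l1 were called, in opposite directions. Of 12 genes known from sebaceous, meibomian and Harderian glands, Mc5r and the desaturase Scd3 were called higher in the lacrimal gland, Scd3 by at least 1.05-fold over a dim parotid probe and not after quantile normalization (adjusted p = 0.211). Klk1b5 and Klk1b24 (-1.66 ± 0.40) were called higher in the parotid out of 3 products of submandibular granular ducts, and limma called 0 of 3 red blood cell genes (0 unadjusted). The plot of gene lists sets these shares against those of all probes.

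**Figure D4:**
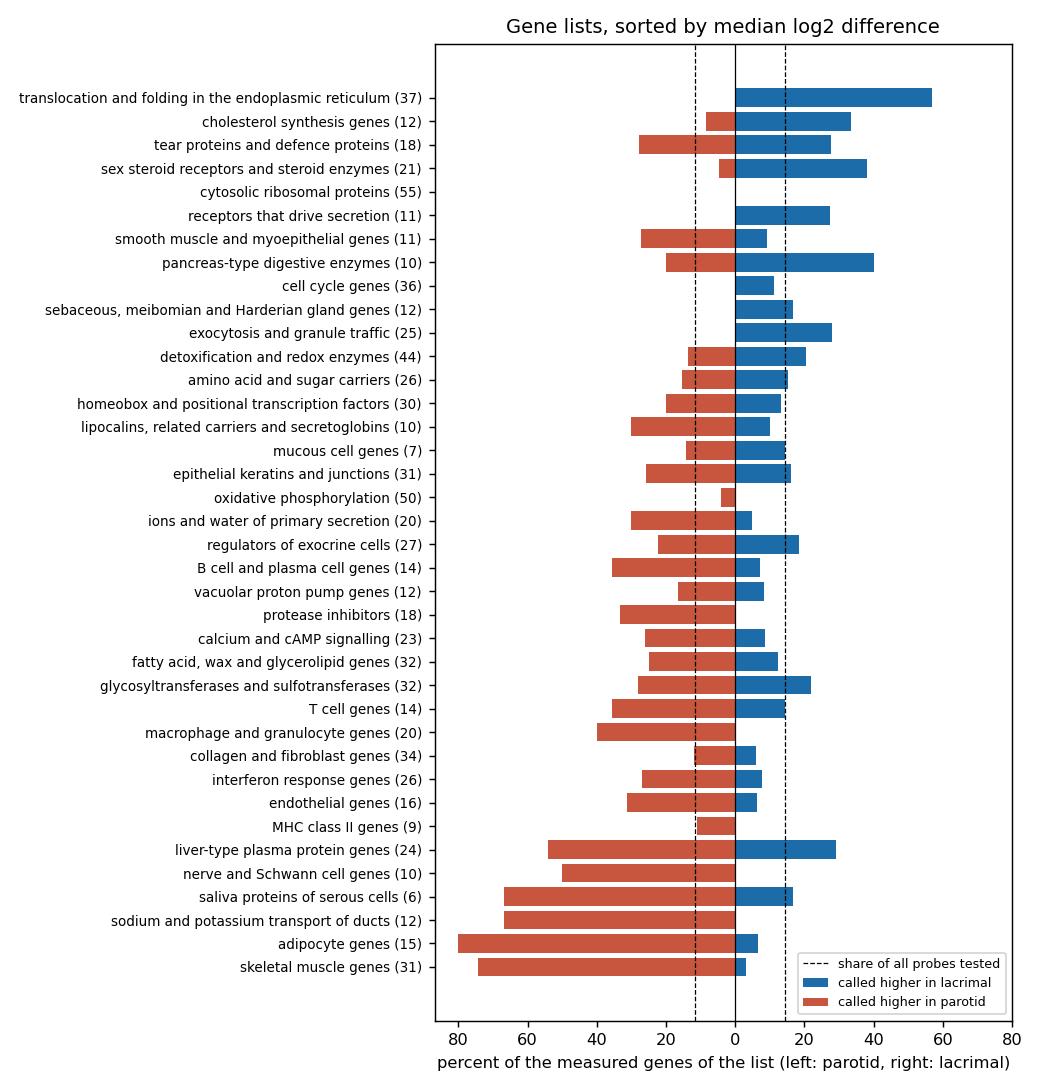
Share of the measured genes of each list (number in brackets, lists of at least 5) called higher in parotid (red, to the left) or lacrimal (blue, to the right), in percent, sorted by median difference. Dashed lines mark the 11.6% and 14.5% of all probes tested. Muscle and adipocyte genes lie at 1 end and genes of the endoplasmic reticulum at the other.

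The sexes were then taken apart. In females 1829 probes (22.3%) were called between the glands, 12.4% of the tested probes higher in lacrimal and 9.88% higher in parotid. In males 1921 (23.4%) were called, 12.8% and 10.6% in these directions, and 1216 were called in both sexes with the same sign. The gland difference itself differed between the sexes for 116 probes (1.41%): it was larger towards lacrimal in males for 79 (0.962%) and in females for 37 (0.451%). This number depended on the fit, with 481 when gland and pool letter were a random block, 190 with the array set as a block and 17 when only the 10 arrays were fitted.

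Ly6f, a membrane protein of the Ly6 family, read 1.79, 0.482 and 0.739 in female and 273, 104 and 138 in male lacrimal pools, and between 0.110 and 0.219 in the parotid. The probe was dim in the parotid of both sexes, so that the lacrimal level was at least 2.50-fold higher in females and at least 449-fold higher in males. The fitted difference between the sexes was 6.91 ± 0.67 (adjusted p = 4.88e-06), and the lacrimal pools alone differed by 7.52 on the log2 scale (male minus female). The probe for Rsph6a, a radial spoke protein of sperm tails, read between 1.74 and 2.85 in female and between 119 and 273 in male lacrimal pools, and between 0.913 and 1.04 in the parotid. Its difference between the sexes was 6.35 ± 0.57 (adjusted p = 3.98e-06).

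Asgr1, a subunit of the asialoglycoprotein receptor, went the other way. Female lacrimal pools read 77.7, 36.9 and 31.3 and male ones 0.488, 1.40 and 0.888. The parotid pools lay between 0.905 and 1.22, with 1 male lacrimal pool above that range and 2 below it. The gland difference was 5.39 in females and -0.31 in males (difference between the sexes -5.70 ± 0.54, adjusted p = 4.7e-06). Tenm3, a cell adhesion protein, likewise had a gland difference of 5.88 in females and 1.0 in males. Adh1 and Hp were higher in the lacrimal gland in both sexes, by 6.22 and 2.76 and by 8.18 and 5.67 in females and males.

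For some genes the order of the glands depended on sex. St3gal5, the sialyltransferase that makes the ganglioside GM3, read 0.323, 0.267 and 0.828 in female and 7.35, 5.41 and 7.84 in male lacrimal pools, with parotid pools between 1.94 and 3.27. It was called higher in the parotid in females (-2.60 ± 0.37) and higher in the lacrimal gland in males (1.35 ± 0.37). In all, 9 probes were called with opposite signs in the sexes. Cdo1, cysteine dioxygenase, had a difference of 0.64 in females (adjusted p = 0.117) and -3.01 in males, and B4galt6, a glycolipid galactosyltransferase, one of -3.74 in females and 0.13 in males (adjusted p = 0.81). For St3gal5, Cdo1 and B4galt6 the lacrimal pools of the sexes did not overlap, while the parotid pools of both sexes lay between 1.94 and 3.27, 9.73 and 14.3, and 3.51 and 4.44.

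**Figure D5:**
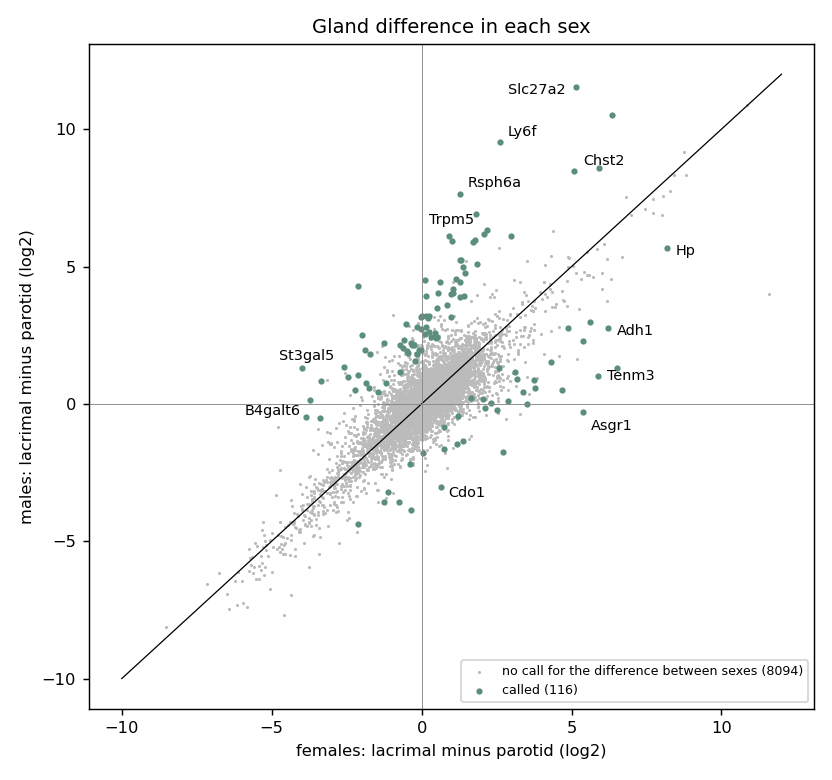
Lacrimal minus parotid difference (log2) of each probe in females (x axis) and males (y axis), with the line of equality. Green points are the 116 probes whose gland difference differed between the sexes. Slc27a2, Ly6f and Rsph6a lie far above the line (fitted values, with the parotid of males dim for Slc27a2 and that of both sexes for Ly6f) and Asgr1, Tenm3 and Cdo1 far below it.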

How the data were processed

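The deposited values are linear intensities of 10500 probes on each array. The scanner and the steps the authors took are not given in the sources used here. From the values, arrays were scaled to a like median and background was subtracted. Cells at exactly -1 were taken as missing (943 on the 10 arrays). Smaller values were raised to 0.0234, the 1st percentile of positive values, and log2 was taken. Probes had to reach their array's 30th percentile on every measured array of at least 1 of 10 groups of sex and gland, which kept 8211 probes (7156 named genes), 8210 of them testable. Below that percentile on all arrays of a gland a probe is dim, and its fold is a bound. On the array, 8983 probes had 1 symbol, checked against RefSeq.

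The fit used limma 3.58.1 under R 4.3.3 and took in all 26 arrays as 10 group means with Benjamini-Hochberg adjustment. It was tested on simulated data in which the arrays varied independently. The spread between pools had a median SD of 0.505 (lacrimal) and 0.345 (parotid). The number of pools limits the precision. Members and gene lists were chosen with earlier results of these data known. Named genes are the 14 largest differences per direction among calls without overlap and with at most 1 missing lacrimal and 0 missing parotid spots, the markers Lpo, Ltf and Amy1, up to 4 called members per list and direction, the 10 uncalled genes highest in both glands (a choice of names, not a ranking of genes), the 10 smallest p-values for a difference between the sexes, and marker genes of other cell types. Pool letters did not pair lacrimal with parotid arrays of a sex (correlations of deviations -0.382 to -0.206). Male and female pools of a gland and letter deviated together, so gland and letter served as a random block in an alternative (correlation 0.563). The main fit, which gave all standard errors and adjusted p not marked otherwise, treats these pools as independent. With the random block, 1010 probes were called higher in the lacrimal gland and 845 higher in the parotid, against 1188 and 954. Other alternatives varied the arrays, filter, floor, missing code, normalization, weights and pools left out.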

Additional observations from a re-analysis of the deposited data

Results flagged for a closer look

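For 18 of the named genes the lacrimal minus parotid difference differed between the sexes (limma, adjusted p under 0.05). Values are the male minus the female difference on the log2 scale. It was larger towards the lacrimal gland in males for Ly6f (6.91), Slc27a2 (6.37), Rsph6a (6.35), Olfr140 (5.19), Trpm5 (4.16), St3gal5 (3.95), B4galt6 (3.87), Mtx1 (3.41), Chst2 (3.40), Pola1 (3.20), Fkbp5 (2.78), Slco1a6 (2.66) and Crisp2 (2.15). It was larger towards the lacrimal gland in females for Asgr1 (-5.70), Tenm3 (-4.88), Cdo1 (-3.65), Adh1 (-3.46) and Hp (-2.50). Of these, 10 were named for their small p-value in this test. For Ly6f, Slco1a6, Trpm5 and Pola1 the parotid probe was dim in both sexes and for Slc27a2 in males, so that these fitted values rest in part on signals below the 30th percentile. With parotid values raised to that percentile they became 7.49 for Ly6f, 4.27 for Trpm5, 5.07 for Slc27a2, 1.16 for Pola1 and 0.56 for Slco1a6. Lacrimal levels of Pola1, a DNA polymerase subunit, were 0.217 in females and 0.495 in males. Trpm5, a channel of taste cells, had lacrimal levels of 1.01 in females and 19.7 in males.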

How the results depend on the processing

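Over all alternatives the counts of probes called higher in lacrimal and in parotid stayed within 1.5 times of 1188 and 954. Fitting only the 10 arrays gave 1040 calls in females, 1140 in males and 17 for the difference between the sexes. The random block gave 481 for that difference, and the array set as a block, chosen after seeing the data, 190. Leaving out each pool in turn gave 1017 to 1317 and 905 to 985 calls for the 2 directions, 1311 to 1950 in females, 1361 to 2125 in males and 84 to 145 between the sexes. Where this left 1 pool of a sex, that pool was assumed to vary like the other groups. The pool letter within sex as a replicate block gave 1160 and 962, 1761, 1823 and 111. The second array set alone and the fit without both lacrimal C pools, whose 30th percentiles were raised (0.512 and 0.561), were also added after seeing the data. Of 204 named genes with a call, 49 lost it in at least 1 alternative. Fdps reversed (-0.36) with missing spots at the floor, where 1 spot decided the value. For other lost calls the cause was not tested. Genes with more than 1 probe disagreed on the call in 22 of 31 cases, never with opposite signs.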
